A study of Sorghum bicolor with 24 samples.

Results

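The xylem sclerenchyma-high genes were 96 of the 34117 genes in a count table from Wray, a cultivar of the bioenergy crop Sorghum bicolor. They were chosen on their own measured levels in laser-captured cells, in CPM (a gene's estimated count as a share of the library's total, scaled to 1e6 counts). A member had a median of at least 20 CPM in xylem sclerenchyma and at least 4 times the highest median of the other 4 captured types. At least 3 of its 4 xylem sclerenchyma libraries also lay above the highest of the 16 other captured libraries. Of 7998 genes with a xylem sclerenchyma median of at least 20 CPM, 135 reached the 4-fold margin, and 39 of those had at most 2 libraries above the rest and were left out.

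The plants were unmodified greenhouse plants under 14-h days, sampled at 74 days in the vegetative phase, and all groups came from internode 8, the youngest that had finished elongating. Xylem sclerenchyma, vascular parenchyma, phloem, pith parenchyma and epidermis were cut from cryosections with a laser, and bulk whole stem of the same internodes was sequenced without capture. Each of the 6 groups had 4 libraries, from 4 plants, and cells of a type were collected together, so a library is a pool of cells of 1 type from sections. The capture protocol lists xylem parenchyma in place of vascular parenchyma and equates xylem sclerenchyma with xylary fibre cells.

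Sclerenchyma fibres around the xylem are elongated support cells. They lay down a thick secondary wall of cellulose, xylan and lignin inside the primary wall, and in grass stems these walls hold much of the biomass and of the lignin that limits its conversion to sugars. Genes that build such walls are commonly switched on together by a small hierarchy of NAC and MYB transcription factors, as known best from Arabidopsis. The count table gives identifiers without names or products, and the reference table supplied matched 0 of them, so no member is named by function here. For the same reason the label xylem sclerenchyma could not be checked against marker genes such as secondary wall cellulose synthases, and no sequence is shown.

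Library totals ran from 2769555 to 38880291 counts in the captured types and from 16189208 to 29605470 in whole stem. For xylem sclerenchyma the totals were 5483186 and 7508563 in the first pair of replicates and 28158378 and 27506995 in the second pair. At these totals the 20 CPM minimum stood for 110 counts in the shallowest xylem sclerenchyma library and 563 in the deepest. Epidermis replicates 1 and 2 and phloem replicate 3 stood apart from the other captured libraries, with 10439, 10911 and 11021 genes above 1 CPM where the others had 13378 to 17125. With these 3 left out, the rule chose 85 genes, 74 of them members.

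Summed over the 96 members, 4.56% ± 1.90 of the counts in a xylem sclerenchyma library came from these genes (SD, n = 4). The 4 libraries held 4.35%, 3.95%, 7.20% and 2.72%. The same genes took 0.500% ± 0.273 of counts in phloem, 0.415% ± 0.358 in vascular parenchyma, 0.392% ± 0.422 in epidermis and 0.302% ± 0.197 in pith parenchyma (SD, n = 4 each). In whole stem, which the rule did not use, they took 1.09% ± 0.399 (SD, n = 4), with 0.738%, 0.790%, 1.57% and 1.26% in replicates 1 to 4. The 4 xylem sclerenchyma libraries lay above every other library, and that separation among captured types follows from the choice of members. The widest 95% Wilson interval of any single share was ± 0.0171 percentage points, which covers counting error only.

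**Figure D1:**
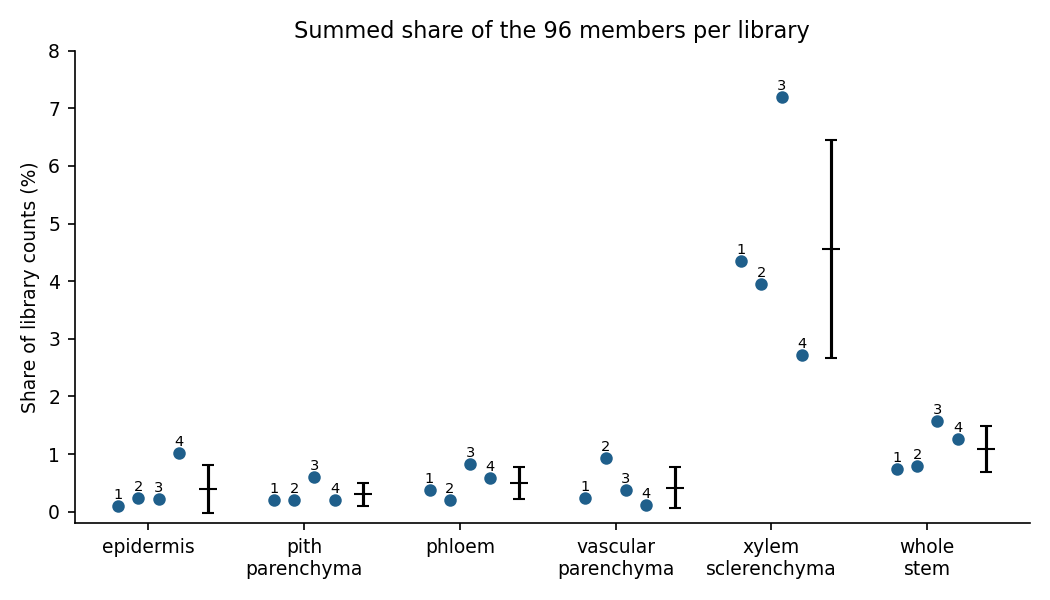
Share of each library's counts, in percent, taken by the 96 members together; points are single libraries with their replicate number, and the bar beside each group is the mean ± SD of 4. Xylem sclerenchyma libraries sit between 2.72% and 7.20%, whole stem between 0.738% and 1.57%, and epidermis replicate 4 is the highest of the other captured libraries at 1.02%.

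Member levels covered a wide range. In xylem sclerenchyma 10 members had medians of 1000 CPM or more, 40 lay from 100 to 1000 CPM and 46 below 100 CPM, down to 20.6 CPM. CPM is not scaled by transcript length, and the table gives no lengths, so these values order the reads of the genes and not the abundance of their transcripts. Every member had counts in all 4 xylem sclerenchyma libraries. All 4 libraries exceeded the 16 other captured libraries for 57 members, and 3 of 4 did so for the remaining 39. In 31 of those 39 the lowest of the 4 was replicate 4.

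**Figure D2:**
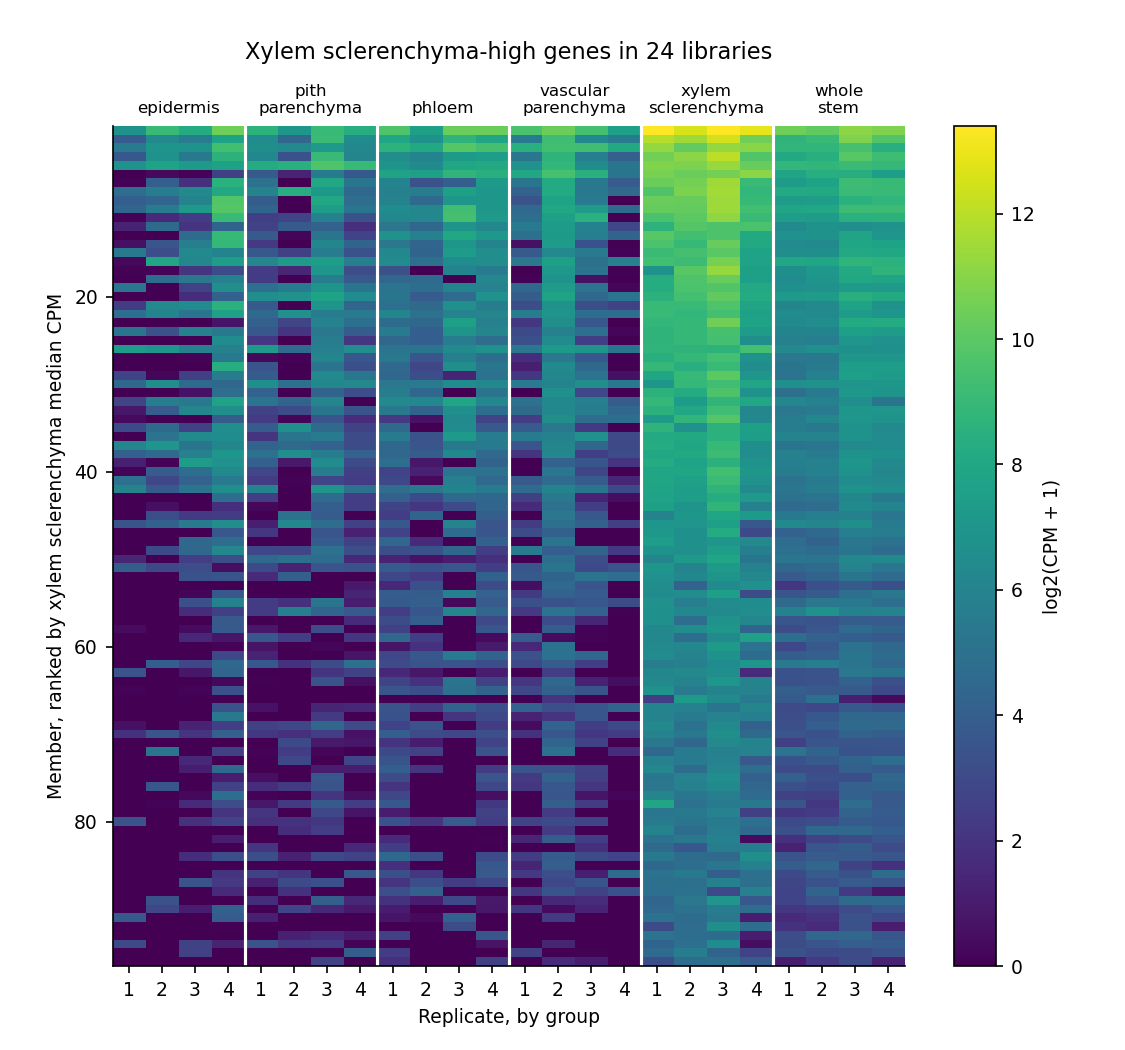
Level of each member, as log2(CPM + 1), in all 24 libraries; each line of the map is 1 of the 96 members, ranked by median CPM in xylem sclerenchyma, and columns are replicates 1 to 4 of each group. Xylem sclerenchyma and whole stem show counts throughout, while the other captured types are at or near 0 for many of the lower-ranked members.

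The highest median CPM belonged to Sobic.006G148800. Its xylem sclerenchyma libraries held 10799, 6265, 10720 and 7788 CPM, a mean of 8893 ± 2243 (SD, n = 4). Phloem was its nearest other type, with 832, 194, 1303 and 1353 CPM in replicates 1 to 4. The gene was read in every group, and its highest value outside xylem sclerenchyma was 2155 CPM in whole stem replicate 3. The lowest xylem sclerenchyma library lay well above that, so the groups did not overlap.

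Sobic.002G072200 followed. It held 3838, 2899, 5792 and 1429 CPM in xylem sclerenchyma, a mean of 3489 ± 1828 (SD, n = 4). In whole stem it held 420, 537, 1785 and 856 CPM. Replicate 4 of xylem sclerenchyma was the low library and replicate 3 of whole stem the high one, and these 2 overlapped. Among the other captured libraries its highest values were 605 CPM in vascular parenchyma replicate 2 and 564 CPM in pith parenchyma replicate 3, where the other 3 libraries of each type stayed at or below 89.5 CPM.

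Restriction to xylem sclerenchyma was a matter of degree for most members. The median xylem sclerenchyma level was 4.06 to 997 times the nearest other type's median over the 94 members for which that ratio exists, with a middle value of 10.3, and 50 members had at least 10 times the nearest median, counting the remaining 2. The nearest type was phloem for 42 members, pith parenchyma for 19, epidermis for 18 and vascular parenchyma for 17. Between 1 and 5 members had no count in any library of a given other type (5 in pith parenchyma, 4 in epidermis, 3 in vascular parenchyma, 1 in phloem). More than 1 CPM in at least 3 of 4 libraries was reached by 72 members in phloem, 62 in pith parenchyma, 62 in vascular parenchyma and 42 in epidermis.

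The other captured types were at a median of 0 for 2 members. Sobic.004G036200 held 4.56, 157, 80.5 and 43.8 CPM in xylem sclerenchyma and had no count in any epidermis, pith parenchyma or phloem library. For those 12 libraries a count of 0 allows a level of up to 0.0772 to 1.08 CPM, by a floor of 3 counts per library. Its only captured signal outside xylem sclerenchyma was 3.23 CPM in vascular parenchyma replicate 2, below the lowest xylem sclerenchyma library. Whole stem held 12.7, 28.8, 1.18 and 0.270 CPM of it, so replicates 1 and 2 carried nearly all of the whole stem signal and overlapped the lowest xylem sclerenchyma library.

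Sobic.006G060900 held 7.48, 26.2, 102 and 26.8 CPM in xylem sclerenchyma. It had no count in pith parenchyma or vascular parenchyma, 2 counts in epidermis, and 7.79 CPM in phloem replicate 3 with 0 in the other 3 phloem libraries. The phloem value exceeded xylem sclerenchyma replicate 1 and lay below the other 3. Whole stem held 2.96, 2.04, 8.98 and 1.11 CPM, and only its replicate 3 overlapped xylem sclerenchyma.

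Near the limits of the rule, members passed or failed by small margins. The 2 lowest medians inside were 20.6 and 21.9 CPM, and the 2 highest outside that met the other conditions were 19.8 and 19.1 CPM. The smallest ratios to the nearest median were 4.06 and 4.07 inside and the largest outside were 3.98 and 3.92. The third-highest xylem sclerenchyma library was 1.03 and 1.04 times the highest other captured library in the closest members, and 0.999 and 0.975 times in the closest genes left out.

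The signal of members outside xylem sclerenchyma was unevenly spread over the libraries of a type. For 74 of the 96 members (77.1%), the highest of the 16 other captured libraries was 1 of 4 libraries, namely vascular parenchyma replicate 2 (24 members), epidermis replicate 4 (21), phloem replicate 3 (19) or pith parenchyma replicate 3 (10). The same 4 libraries held the highest value for 29.5% of the genes with a xylem sclerenchyma median of at least 20 CPM. Within its own type, vascular parenchyma replicate 2 was the highest library for 77 members, epidermis replicate 4 for 72, pith parenchyma replicate 3 for 59 and phloem replicate 3 for 43. Over those genes the corresponding shares were 29.2%, 31.9%, 29% and 33.1%. These values entered the choice of members, which makes the counts a description. The members' summed share was 0.925%, 1.02%, 0.597% and 0.834% in these 4 libraries, against 0.0975% to 0.588% in the other 12. The 4 libraries had totals of 8247350 to 33400447 counts and 11021 to 16395 genes above 1 CPM, and the part of either in the pattern was not tested. With these 4 libraries left out the rule chose 136 genes, which included 91 of the 96 members. The 4 were picked after their values were seen, as the highest of each type in the members' summed share. Leaving them out loosens the rule, so a larger number was built in.

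Signal of another type was also seen within xylem sclerenchyma. By the same rule applied to phloem, 286 genes were phloem-high, and they took 6.14% of the counts in xylem sclerenchyma replicate 2, against 0.410%, 0.292% and 0.562% in replicates 1, 3 and 4 and 10.7% to 19.8% in phloem. The members' share in replicate 2, 3.95%, lay between those of replicates 1 and 4. The 194 vascular parenchyma-high genes took 0.575% to 1.98% of the counts in xylem sclerenchyma and 5.99% to 8.95% in vascular parenchyma. Their part in the members' levels was not tested. When xylem sclerenchyma replicate 2 was left out and all 3 remaining libraries had to lie above the rest, 61 genes were chosen, and 56 of these were members. Leaving out replicates 1, 3 and 4 in the same way gave 60, 53 and 96 genes. The part of the phloem-high signal in these numbers was not tested.

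Within xylem sclerenchyma the members moved together from library to library. Replicate 3 was the highest of the 4 libraries for 68 members and replicate 4 the lowest for 63. Of all 7998 genes with a median of at least 20 CPM there, replicate 3 was highest for 20.3% and replicate 4 lowest for 24.9%. The median member was 3.68 times as high in replicate 3 as in replicate 4, while over the 7902 non-members the corresponding ratio had a median of 0.806 (over the 7843 with counts in replicate 4). These libraries chose the members, so the pattern is a description of them.

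Not every member followed that pattern. The ratio of the highest to the lowest xylem sclerenchyma library had a median of 4.44 and exceeded 10 for 14 members, of which 11 were lowest in replicate 4. Sobic.001G285100, singled out after its values were seen, had the widest ratio, with 18.6, 28.8, 89.0 and 0.400 CPM. Sobic.006G187900, also chosen after its values were seen, ran the other way, with 76.6, 28.1, 81.0 and 205 CPM and replicate 4 as the highest library. It was read at 27.2, 17.6, 15.1 and 12.9 CPM in whole stem, all below its lowest xylem sclerenchyma library.

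Whole stem libraries played no part in the choice. They shared the high replicate 3 with xylem sclerenchyma but not the low replicate 4, and for 81 members whole stem replicate 4 lay above whole stem replicate 1. Replicate 3 was the highest whole stem library for 65 members and replicate 1 the lowest for 57, against 19% and 21% of all genes with a xylem sclerenchyma median of at least 20 CPM. The highest whole stem library was at least 2 times the lowest for 76 of the 96 members (79.2%), against 12.6% of those genes. The median ratio of highest to lowest was 2.60 for members and 1.39 for non-members. A wide range was not particular to the members, since that ratio was 2.51 for vascular parenchyma-high and 2.40 for epidermis-high genes chosen by the same rule. In replicate 3 the median member was 2.27 times as high as in replicate 1 and 1.99 times as high as in replicate 2, and 86 and 82 members were higher. It was 1.17 times as high as in replicate 4, with 74 members higher. Among non-members the ratios of replicate 3 to replicates 1, 2 and 4 had medians of 0.947, 0.952 and 1.07. The high whole stem library was thus the same for most members, and so was the low one, though members with both were not counted. The fewest counts behind any member were 360 over the 4 libraries. In bulk tissue, fewer cells of a type and less RNA per cell cannot be told apart.

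**Figure D3:**
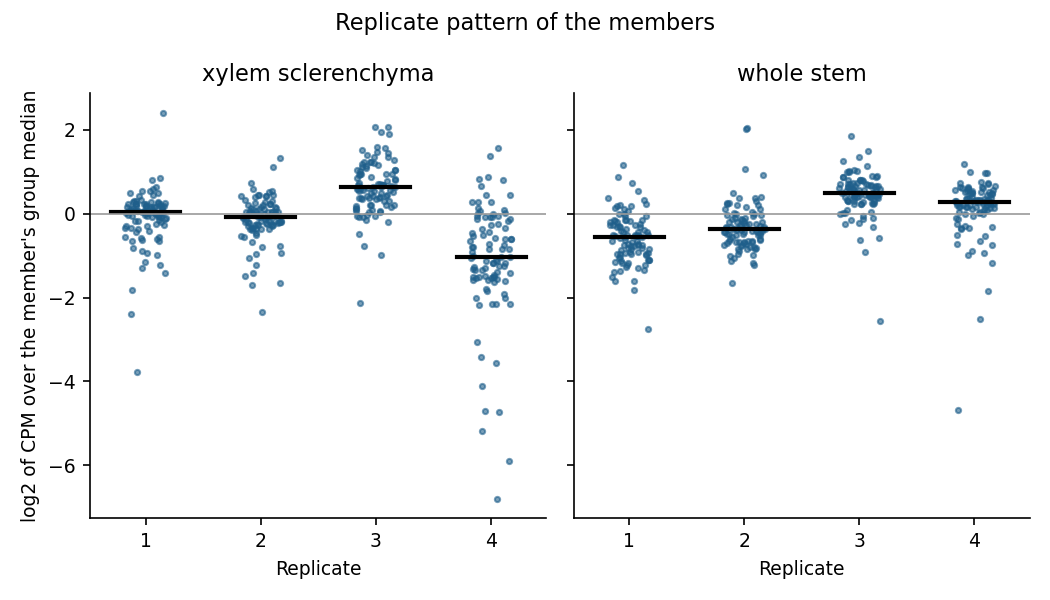
Each member's CPM in a library divided by that member's median in the group, as log2, for xylem sclerenchyma (left) and whole stem (right); points are the 96 members and black bars their medians. The medians were 0.04, -0.08, 0.63 and -1.04 in xylem sclerenchyma replicates 1 to 4 and -0.55, -0.37, 0.50 and 0.27 in whole stem replicates 1 to 4, so replicate 3 is the highest in both groups while replicate 4 is low only in xylem sclerenchyma.

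Members lowest in xylem sclerenchyma replicate 4 were highest in whole stem replicate 3 in 49 of 63 cases (77.8%), and the other members in 16 of 33 (48.5%). The labels give 4 plants and number the replicates in each group, but do not say that a number marks 1 plant across groups. With 4 libraries a group, no correlation across libraries is given.

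Whole stem contained all 96 members above 1 CPM in at least 3 of 4 libraries, and every member had counts in all 4. That is also true of nearly any gene at these levels, since 7997 of the 7998 genes with a xylem sclerenchyma median of at least 20 CPM were detected there by the same measure. The whole stem median was below the xylem sclerenchyma median for every member. Of those 7998 genes, 49.6% had the lower median in whole stem. The members were chosen for high xylem sclerenchyma medians, which favours that difference. The whole stem median reached 25.8% of the xylem sclerenchyma median in the middle member. The interquartile range was 20.4% to 31.8%, with extremes of 9.43% and 67.8%. In 86 members the whole stem median exceeded the medians of all 4 other captured types, and in 74 every whole stem library did, against 19.2% and 9.3% of those 7998 genes. The members were chosen for low medians in these types, so both counts are largely set by the rule.

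Xylem sclerenchyma was then compared with whole stem across 19880 genes with the quasi-likelihood test of edgeR, p-values being adjusted by Benjamini-Hochberg over all of them. A call needed an adjusted p under 0.05 and a change of 1 or more on the log2 scale. Of the 96 members, 42 (43.8%) were called higher in xylem sclerenchyma and 0 lower. Over all genes tested, 2.06% were called higher and 7.26% lower, and of the genes with a xylem sclerenchyma median of at least 20 CPM, 4.96% were called higher. The xylem sclerenchyma values entered both the choice of members and this comparison, so part of the excess is set by the choice. All 96 fitted fold changes were above 0, and the members' median log2 fold change was 2.17, against -0.08 over all genes tested.

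The fold changes of called and not called members overlapped, while standard errors were mostly smaller among the called. Called members had log2 fold changes of 1.49 to 3.30 with a median of 2.34 and a median standard error of 0.459. The 54 that were not called had a median of 2.02 and a median standard error of 0.651, and 51 of the 54 still had a fitted log2 fold change of at least 1. All 4 xylem sclerenchyma libraries lay above all 4 whole stem libraries for 46 members (47.9%), against 8.2% of the genes with a median of at least 20 CPM and 2.91% of all genes with counts. A further 46 had 3 of 4 xylem sclerenchyma libraries above whole stem. The share of all genes in that state was not counted, and the choice of members for high xylem sclerenchyma values favours it.

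The count of 42 depended on single libraries and on the fit. It was 73 without xylem sclerenchyma replicate 4, and 22, 20 and 23 without whole stem replicates 1, 2 and 4, while the other 4 omissions gave 30 to 40. DESeq2 called 77 members higher, limma voom with quality weights 32, and a single edgeR fit over all 24 libraries 1. With the replicate number as a block in the edgeR fit, the count was 9, where 26 of all 19880 genes were called higher. Calls over all genes moved with the setting as well. They were 409 of 19880 in the stated fit and 700 of 20345 without xylem sclerenchyma replicate 4. Without whole stem replicates 1, 2 and 4 they were 204, 165 and 196. DESeq2 called 1184 of 27474 genes higher, limma voom with quality weights 300 of 19880, and the fit over 24 libraries 13 of 20592.

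**Figure D4:**
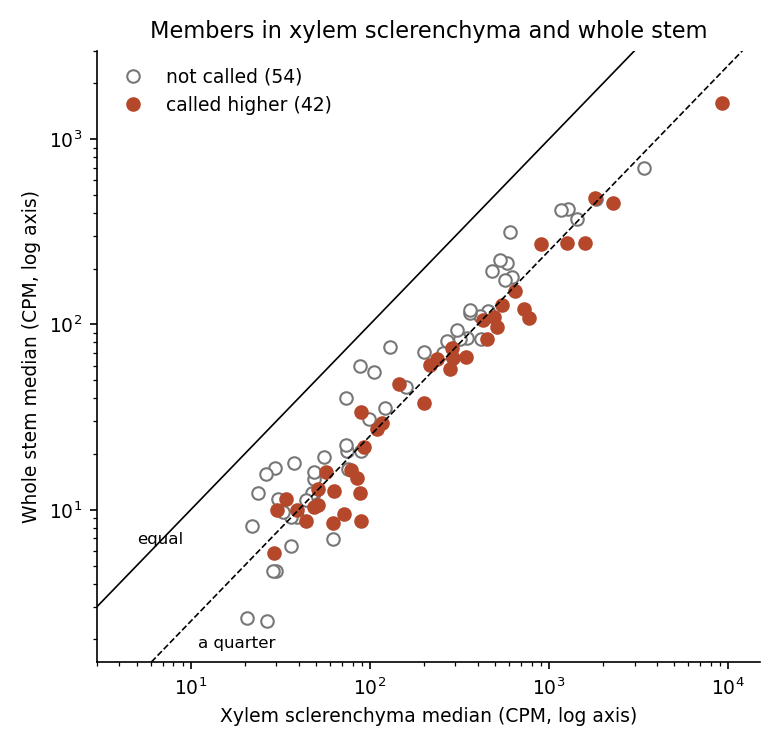
Median CPM of each member in xylem sclerenchyma (horizontal, log axis) and whole stem (vertical, log axis); filled points are the 42 members called higher in xylem sclerenchyma, open points the 54 not called, the solid line marks equal levels and the dashed line a whole stem level 4 times lower than in xylem sclerenchyma. All members lie below the line of equal levels, from 9.43% to 67.8% of the xylem sclerenchyma median.

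The largest called rise over whole stem was that of Sobic.001G247300. It held 98.8, 17.6, 80.5 and 108 CPM in xylem sclerenchyma and 3.40, 8.68, 12.9 and 8.65 CPM in whole stem. Every xylem sclerenchyma library exceeded every whole stem library, with replicate 2 the nearest. The log2 fold change was 3.30 (SE 0.645) with an adjusted p of 0.0129 in edgeR's quasi-likelihood test. The call was lost in the fit over 24 libraries, at 3.30, and without xylem sclerenchyma replicate 4 and whole stem replicate 1 together, at 2.88. Vascular parenchyma replicate 2, at 22.8 CPM, exceeded xylem sclerenchyma replicate 2.

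Sobic.001G006101 had the next largest called rise. Its xylem sclerenchyma libraries held 79.6, 63.7, 133 and 63.2 CPM and its whole stem libraries 9.17, 9.88, 16.7 and 8.67 CPM, with no overlap. The log2 fold change was 3.11 (SE 0.420) with an adjusted p of 0.0108 by the same edgeR test. Its estimated counts were not all whole, as for 43 of the 96 members (44.8%) and 29.2% of all genes with counts, so some of its reads were divided with other sequences and its level is uncertain to that extent. The same limit holds for Sobic.006G148800, the member with the highest median, whose counts were not all whole either.

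The 2 members with the highest CPM fell on either side of the threshold. Sobic.006G148800 was higher in xylem sclerenchyma by a log2 fold change of 2.61 (SE 0.340), with an adjusted p of 0.00979 from edgeR. For Sobic.002G072200 the log2 fold change was 2.12 (SE 0.618) and edgeR's adjusted p was 0.0718, short of the threshold, and it passed without xylem sclerenchyma replicate 4 or without whole stem replicate 3, at 2.39 and 2.71. The 2 members without signal in most other captured libraries were not called either, at 2.93 (SE 1.39, adjusted p 0.278 by edgeR) for Sobic.004G036200 and 3.66 (SE 1.01, adjusted p 0.0591 by edgeR) for Sobic.006G060900. The latter passed without xylem sclerenchyma replicate 1, at 4.01, or without whole stem replicate 3, at 4.60.

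The smallest difference from whole stem was that of Sobic.003G034500, chosen after its values were seen. It held 104, 74.3, 84.1 and 92.7 CPM in xylem sclerenchyma and 57.8, 113, 57.3 and 62.0 CPM in whole stem. Whole stem replicate 2 lay above all 4 xylem sclerenchyma libraries, and the log2 fold change was 0.43 (SE 0.267) with an adjusted p of 0.434 by edgeR. It was also the most even member within xylem sclerenchyma, with a highest library 1.40 times the lowest.

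Because all 4 replicates entered the rule, its repeatability was examined by choosing genes on 2 replicates and reading their levels in the other 2. On replicates 1 and 2, with both xylem sclerenchyma libraries above the 8 others, 122 genes were chosen, of which 75 were members (61.5% of the 122 and 78.1% of the 96). In replicates 3 and 4, which took no part in that choice, xylem sclerenchyma had the highest mean of the 5 types for 110 of the 122 (90.2%), against 17.9% of the 8459 genes at 20 CPM or more in xylem sclerenchyma replicates 1 and 2. The mean was at least 4 times that of every other type for 54 (44.3%), against 1.1%, and both libraries lay above the 8 others for 52 (42.6%), against 3.53%. The median ratio to the nearest type was 3.37 for the chosen genes and 0.573 for the background.

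The reverse choice gave a similar share for the highest type and larger shares for the other measures. On replicates 3 and 4, 87 genes were chosen, of which 55 were members (63.2% of the 87 and 57.3% of the 96). In replicates 1 and 2, xylem sclerenchyma had the highest mean for 76 of the 87 (87.4%), against 17.2% of 8217 genes. At least 4 times every other type was held by 49 (56.3%), against 1.56%, and both libraries lay above the 8 others for 62 (71.3%), against 5.31%. The median ratio to the nearest type was 4.59, and that of the background 0.612. In both directions most chosen genes kept xylem sclerenchyma as the highest type in libraries that had not chosen them, while about as many lost the 4-fold margin as kept it. The chosen sets overlap the 96 members only in part, so these values describe the rule and do not test the members.

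The rule chose fewer genes for xylem sclerenchyma than for any other captured type. Without a limit on their number it gave 351 genes for epidermis, 286 for phloem, 268 for pith parenchyma and 194 for vascular parenchyma. The middle whole stem level, as a percentage of the median in the gene's own type, was 25.8% for the 96 members, 48.5% for pith parenchyma-high genes, 9.56% for phloem-high, 9.34% for vascular parenchyma-high and 5.31% for epidermis-high genes. The interquartile range of the members, 20.4% to 31.8%, did not meet those of the phloem-high (6.99% to 13.8%) and vascular parenchyma-high genes (6.69% to 13.1%). Each list was chosen on its own type's values and genes are not replicates, so these are descriptions without a test. In whole stem, replicate 3 was highest for 67.7% of the members, compared with 18.5% of phloem-high genes, 15.5% of vascular parenchyma-high genes, 10.4% of pith parenchyma-high genes and 9.97% of epidermis-high genes. Other lists shared a different whole stem library about as often, with 66.0% of vascular parenchyma-high genes highest in replicate 1 and 61.2% of pith parenchyma-high genes highest in replicate 4.

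**Figure D5:**
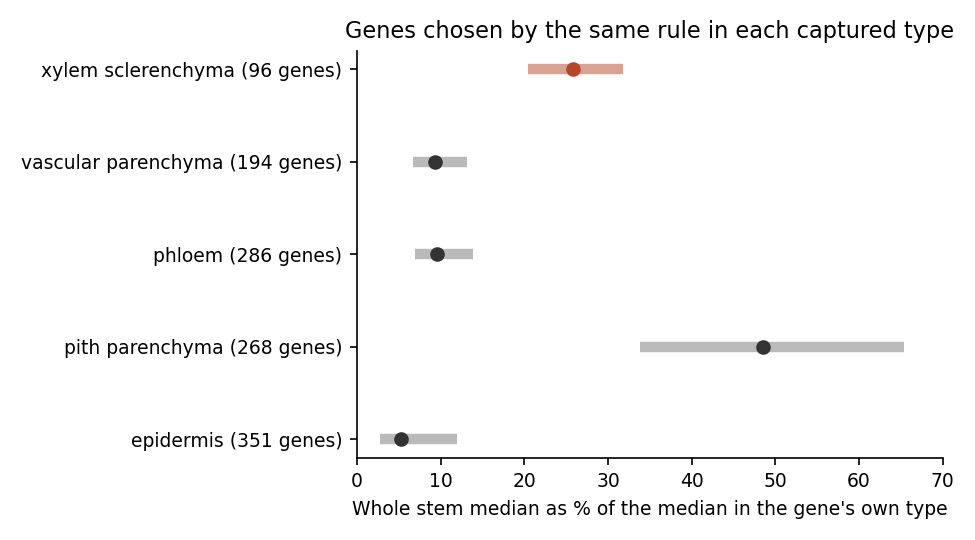
Whole stem median as a percentage of the median in the captured type for which a gene was chosen; points are medians over the genes of each list and bars the interquartile range. The 96 xylem sclerenchyma-high genes are centred on 25.8%, between the pith parenchyma-high genes at 48.5% and the other 3 lists at 5.31% to 9.56%.

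By the chromosome field of their identifiers, the members were spread over all 10 chromosomes. Chromosome 1 held 20 of them (20.8%, against 16.8% of all genes), chromosome 3 held 18 (18.8% against 13.7%) and chromosome 6 held 14 (14.6% against 8.65%), while chromosome 8 held 2 (2.08% against 5.94%). Within 5 lines of each other in the identifier-ordered table stood 3 pairs of members. Whether these pairs are copies of each other is not given in the sources used here.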

How the data were processed

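The authors deposited estimated counts per gene for 34117 genes in 24 libraries, without normalization; 10.5% of the values were not whole. The table's name and the submitters' processing notes give Salmon, and the notes also list FastQC and alevin; their versions, the transcript index and the genome build were not given in the sources used here. Per the labels' protocols, libraries used a full-length cDNA kit and single-end 150 bp reads. No molecular identifiers are named, so intervals and floors cover counting error only. No 2 columns were identical. Labels state 4 plants, so p-values measure the spread between these libraries.

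Membership, medians and shares used CPM from column totals. The members, lists and tests were chosen with earlier results of these data known. Product lists could not be built, since identifiers matched no reference entry, and identifiers are printed for at most 2 members under each part of the naming rule (highest median, highest ratio to the nearest type, largest called rise), plus 3 chosen after their values were seen. Xylem sclerenchyma and whole stem were compared on counts rounded to whole numbers over 8 libraries. The fit used edgeR 4.0.16 in R 4.3.3 (filterByExpr, TMM, robust quasi-likelihood F test). The code was also run on simulated counts, with each gene given the same spread in both groups. That run does not cover an unequal spread. A standard error is the log2 fold change divided by the square root of F. Alternatives used DESeq2 1.42.0 and limma 3.58.1. Tests among captured types were not made, because the rule used those values.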

Additional observations from a re-analysis of the deposited data

Results flagged for a closer look

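Dixon's ratio was applied to 38 sets of 4 libraries, and 15 had a highest library apart from the other 3. In 5 of these the other 3 were at 0, so the ratio is 1 whatever the value and carries no information. Of the other 33 sets 10 stood apart. Most sets hold captured values that the rule used, and the same genes and libraries recur among them. The number is therefore a description and cannot be set against a chance rate. In the members' summed share, epidermis replicate 4 stood apart at 1.02%, with the next library at 0.231%, and pith parenchyma replicate 3 at 0.597%, with the next at 0.205%. The phloem-high genes' share in xylem sclerenchyma stood apart in replicate 2, at 6.14% against 0.562% for the next.

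Of single members, Sobic.002G072200 stood apart in pith parenchyma replicate 3 (564 CPM) and in vascular parenchyma replicate 2 (605 CPM). The 5 uninformative sets follow. Sobic.004G036200 had 3.23 CPM in vascular parenchyma replicate 2 with 0 in the other 3. Sobic.006G060900 had 0.0599 CPM in epidermis replicate 4 and 7.79 CPM in phloem replicate 3, with 0 in the other 3 libraries of each type. Sobic.001G247300 had 0.0299 CPM in epidermis replicate 4 and 0.863 CPM in pith parenchyma replicate 4, again with 0 in the rest. The epidermis values are 2 counts and 1 count, below the floor of 3 counts. For Sobic.001G006101 the highest library stood apart in 5 groups, at 0.223 CPM in epidermis replicate 4, 34.0 CPM in phloem replicate 3, 10.02 CPM in pith parenchyma replicate 3, 22.5 CPM in vascular parenchyma replicate 2 and 16.7 CPM in whole stem replicate 3.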

How the results depend on the processing

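The number of genes chosen stayed within 1.5 times the 96 under 26 of 31 alternatives. It was 57 with a margin of 8 times and 57 with all 4 libraries required above the rest. Leaving out 1 captured library gave 53 to 115, with 60, 61 and 53 without xylem sclerenchyma replicates 1, 2 and 3, where all 3 remaining libraries had to pass. TMM and RLE scaling gave 95 and 100 genes, of which 90 and 91 were members.

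Members called higher than whole stem numbered 42. DESeq2 gave 77, a fit over all 24 libraries gave 1, with the median standard error of the members at 1.60 in place of 0.585, and leaving out 1 library gave 20 to 73. The replicate block gave 9, where 26 of all 19880 genes were called higher. Same-numbered libraries of the 2 groups deviated with correlations of 0.266, -0.0322, 0.176 and -0.16, and 1 of 4 libraries matched its own number best. The numbers were therefore not taken to pair libraries, but these values cannot exclude that a number marks 1 plant. RLE, no filter, limma voom with quality weights and the set of replicates as a covariate gave 46, 49, 32 and 52. Over all genes they called 460, 447, 300 and 352 higher. No member was called lower in any of these fits, and all 96 fold changes stayed above 0. Detection in whole stem was 94 to 96 members with 1 whole stem library left out and 89 at 5 CPM. None of the 6 members named by rule reversed. The fit over 24 libraries ended the calls of Sobic.006G148800 (2.61), Sobic.001G006101 (3.11) and Sobic.001G247300 (3.30), and the last also lost its call under the replicate block (3.19). Sobic.002G072200 and Sobic.006G060900, not called, passed under 4 alternatives each. Shallow xylem sclerenchyma libraries limit the lowest members, with 1131 counts over 4 libraries for the fewest.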
